A study of Mus musculus with 11 samples.

Results

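The apolipoprotein genes described here are Apoc3, Apoa1, Apoa4 and Apoa5, which lie together at a locus on mouse chromosome 9, and Apoc1 and Apoe on chromosome 7 and Apod on chromosome 16. They were taken as all probe sets whose platform annotation gave exactly 1 gene symbol from this list, which came to 12 of the 34945 probe sets with a single symbol and 7 of 18193 genes. The chromosome 9 genes had 8 of the 12 probe sets. The genes were chosen around the known change of Apoc3 under dexamethasone, so in every comparison that holds dexamethasone arrays their values are a description with no test.

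The RNA came from 3T3-L1 cells, which are mouse preadipocytes that can be turned into fat cells in culture, and was hybridised to Affymetrix arrays after differentiation. The labels present the treatments as models of insulin resistance: CI (chronic insulin, n = 2) had 10 nM insulin added 4 times over 2 days, TNF (tumour necrosis factor alpha, an inflammatory cytokine, n = 3) had 2 ng/ml for 4 days, DEX (dexamethasone, a synthetic glucocorticoid, n = 3) had 20 nM for 8 days in 0.01% ethanol, and control cells (n = 3) had no treatment. Treatments were staggered so that all cells were of the same age after differentiation. The protocol names ethanol as the control for DEX while the control arrays are labelled untreated, so a carrier effect and a dexamethasone effect cannot be told apart here.

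All groups share this single cell line, and the labels do not say that the arrays of a group came from separate cultures. The p-values therefore reflect only how far these samples spread, which may be technical variation, and precision is limited by the small number of arrays. Median intensities were 124.5 to 129.5 on the 11 arrays, and the largest value in the table was 25900. The adipocyte markers Adipoq and Fabp4 lay near that top in every group, with Adipoq at a mean of 21550 in CI, 20890 in TNF, 21640 in DEX and 22830 in control. Other adipocyte markers did change: of 10 tested, 2 rose in CI, 5 fell in TNF, and 1 rose and 4 fell in DEX, as given below. Of all genes tested 8.38% rose in CI, 11.2% fell in TNF, and 14.0% rose and 13.6% fell in DEX. The glucocorticoid-induced genes Fkbp5, Tsc22d3 and Per1 rose in DEX by 2.71, 1.99 and 0.89 on the log2 scale, with adjusted p = 6.65e-14, 1.42e-09 and 5.31e-06 (limma, Benjamini-Hochberg).

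Apolipoproteins are the protein part of the particles that carry triglyceride and cholesterol in blood. Apoa1, Apoa4, Apoa5 and Apoc3 are best known from liver and intestine, where a shared upstream enhancer region and nuclear receptors such as Hnf4a act on the cluster. Apoe, Apoc1 and Apod are also made outside those organs, Apoe in particular by macrophages and fat cells.

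To show the DNA ahead of the genes described below, the 250 bases before an annotated start are printed for 5 of them, from RefSeq on the mouse build GRCm38.p6, written 5′ to 3′ along the gene's own strand. Of the 7 genes 5 matched an entry, and Apoc3 and Apoc1 are named only. Capitals mark matches to the glucocorticoid receptor hexamer AGAACA, whose reverse complement is TGTTCT, or to the TATA box TATAAA.
Apoa1, chr9:46228380-46228629, plus strand: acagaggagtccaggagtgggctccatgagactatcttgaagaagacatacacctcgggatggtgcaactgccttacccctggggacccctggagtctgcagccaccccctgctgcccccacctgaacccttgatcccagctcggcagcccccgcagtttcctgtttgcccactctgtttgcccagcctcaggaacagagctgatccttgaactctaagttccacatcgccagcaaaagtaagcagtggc
Apoa4, chr9:46240594-46240843, plus strand: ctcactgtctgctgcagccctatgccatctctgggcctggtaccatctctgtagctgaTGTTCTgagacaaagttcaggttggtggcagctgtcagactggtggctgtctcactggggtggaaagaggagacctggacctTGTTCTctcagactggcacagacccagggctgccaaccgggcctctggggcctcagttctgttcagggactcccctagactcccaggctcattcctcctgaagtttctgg
Apoa5, first of its annotated starts, chr9:46268358-46268607, plus strand: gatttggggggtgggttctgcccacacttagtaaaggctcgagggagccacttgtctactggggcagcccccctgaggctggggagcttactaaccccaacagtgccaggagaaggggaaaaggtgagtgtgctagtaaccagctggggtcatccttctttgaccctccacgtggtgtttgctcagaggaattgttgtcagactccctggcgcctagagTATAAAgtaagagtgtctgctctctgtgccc
Apoe, its most upstream annotated start, chr7:19699189-19699438, minus strand: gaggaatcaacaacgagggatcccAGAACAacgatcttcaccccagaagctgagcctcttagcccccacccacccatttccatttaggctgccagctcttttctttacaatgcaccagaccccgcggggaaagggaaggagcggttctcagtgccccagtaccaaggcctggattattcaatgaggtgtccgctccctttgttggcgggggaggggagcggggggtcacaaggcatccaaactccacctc
Apod, chr16:31314809-31315058, minus strand: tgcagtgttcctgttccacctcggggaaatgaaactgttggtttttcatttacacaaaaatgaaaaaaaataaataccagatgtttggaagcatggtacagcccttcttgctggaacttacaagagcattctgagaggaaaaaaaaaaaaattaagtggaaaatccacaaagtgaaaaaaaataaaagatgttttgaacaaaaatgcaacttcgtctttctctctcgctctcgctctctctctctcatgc
Searched on both strands, the Apoa4 sequence held the hexamer at -192 to -187 and at -110 to -105 from the start, both on the reverse strand. Of 3 annotated Apoe starts only the most upstream, printed one held it, at -226 to -221 on the forward strand. The second Apoe window, not printed, held overlapping matches to the TATA box at -100 to -95 on the reverse strand and -96 to -91 on the forward strand, and the remaining one held no match. The printed Apoa5 sequence held a TATA box at -31 to -26, which is -56 to -51 from its second annotated start. The Apoa1 and Apod windows held no match to either. Of 32851 mouse promoter windows of this length, 16.1% held the hexamer and 12.4% held TATAAA. The full palindrome, AGAACA and TGTTCT with 3 bases between them, was in 0.00913% of all windows, and a direct repeat for nuclear receptors, AGGTCA and AGGTCA with 1 base between them, in 0.0335%. Neither was in any of the 8 windows of these genes. A match is a description of the letters and not a bound site.

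In DEX the chromosome 9 genes were all higher than in control on their brightest probe sets, and the other genes were all lower. Apoa1 and Apoa5 were higher by only 0.18 and 0.09 on the log2 scale. Apoc3, an inhibitor of lipoprotein lipase and of the clearance of triglyceride-rich particles, was by far the largest difference, and Apoe, the ligand by which remnant particles are taken up, was the largest in the other direction. All 3 DEX arrays lay beyond all 3 control arrays for each of the 7 genes, 4 above and 3 below. Over all 15623 genes tested, 40.5% had DEX arrays that did not overlap the control arrays (21.8% above and 18.7% below), and 27.6% passed an adjusted p of 0.05 (limma, Benjamini-Hochberg). As the genes were chosen from this comparison, nothing is read from their count.

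Apoc3 (probe set 1418278_at) had an intensity of 3651, 3889 and 4408 in DEX, against 111.2, 126.6 and 125.2 in control. The DEX arrays were all far above the rest, and no other array of any group came near them. The ratio of mean intensities was 32.9, and the log2 fold change, taken on log2(intensity + 16), was 4.86 ± 0.07 (SE). Of all genes tested only Fam107a had a larger log2 fold change, at 5.54. Against the other treatments the DEX mean of 3982 ± 387 (SD, n = 3) was 38.8 times the CI mean of 102.6 ± 1.96 (n = 2) and 43.0 times the TNF mean of 92.6 ± 6.81 (n = 3).

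Apoa4, a protein of chylomicrons and high-density particles, differed far less, and its brighter probe set 1436504_x_at has the suffix for probes that can match other sequences. That probe set had 133.8, 224.8 and 146.4 in DEX, against 99.6, 97.1 and 100.9 in control. Its second probe set 1417761_at had 119.1, 124.1 and 92.4 in DEX, against 56.8, 58.6 and 59.9 in control. Both probe sets were above control on every DEX array, but the array that was highest on the first, DEX replicate 2, was only just the highest on the second. The ratios of means were 1.70 and 1.91, and the log2 fold changes 0.65 ± 0.12 and 0.77 ± 0.08 (SE). Without DEX replicate 2 the first was 0.44.

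Apoa1, the main protein of high-density lipoprotein, has 4 probe sets here, and all carry a suffix for probes that can match other sequences (_x_at) or several transcripts (_a_at). The brightest, 1419233_x_at, had 171.2, 173.5 and 169.3 in DEX, against 156.5, 150.4 and 142.9 in control. The groups did not overlap, and the ratio of means was 1.14 (log2 fold change 0.18 ± 0.05 SE). The other 3 were dimmer, with DEX means of 104.8, 84.0 and 60.3 against control means of 92.1, 68.5 and 50 and ratios of 1.14, 1.23 and 1.21. DEX and control arrays overlapped on the dimmest of them, 1419232_a_at.

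Apoa5, which promotes the action of lipoprotein lipase, had 188.2, 178.4 and 181.1 in DEX, against 173.4, 162.6 and 175.1 in control (1417610_at). The lowest DEX array lay just above the highest control array. Its ratio of means was 1.07 and its log2 fold change 0.09 ± 0.06 (SE), and 4603 genes had a larger one. Within the chromosome 9 group the DEX differences thus covered a range of 0.09 to 4.86 on the log2 scale, with Apoc3 alone above 1. Array medians were 124.5 to 129.5, and how much of the Apoa1, Apoa4 and Apoa5 intensities is background is not known.

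Apoe (1432466_a_at) had 193.5, 170.3 and 193.3 in DEX, against 770.3, 653.8 and 593.8 in control. The DEX arrays agreed closely and none came near a control array, while the control arrays spread more widely. The ratio of means was 0.276, the log2 fold change was -1.77 ± 0.09 (SE), and 35 of the 15623 genes had a lower one. The DEX mean was 0.402 of the CI mean and 0.372 of the TNF mean.

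Apoc1, a small protein that hinders lipase and receptor binding of particles, is the neighbour of Apoe on chromosome 7. It had 3164, 3803 and 4991 in DEX, against 8443, 7543 and 7191 in control (1417561_at). All DEX arrays were lower than all control arrays, but they spread widely, with an SD of 927 on a mean of 3986. The ratio of means was 0.516 and the log2 fold change -0.97 ± 0.12 (SE).

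Apod, a lipocalin that binds small lipids such as arachidonic acid, had 5625, 6078 and 5076 in DEX, against 8164, 8911 and 7950 in control on probe set 1416371_at. The groups did not overlap, with a ratio of means of 0.671 and a log2 fold change of -0.58 ± 0.07 (SE). Its second probe set, 1444564_at, was dim and did not follow the first. It had 105.8, 112.9 and 108.5 in DEX, against 93.2, 115.9 and 103.0 in control, so that those groups overlapped. With the mean of both probe sets in place of the brighter one, the log2 fold change was -0.26. On the brightest probe sets of all 7 genes the DEX arrays also lay outside the CI and the TNF arrays, on the same side as they lay of control, where 52.8% and 47.7% of all genes tested did not overlap. These comparisons share the DEX arrays.

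**Figure D1:**
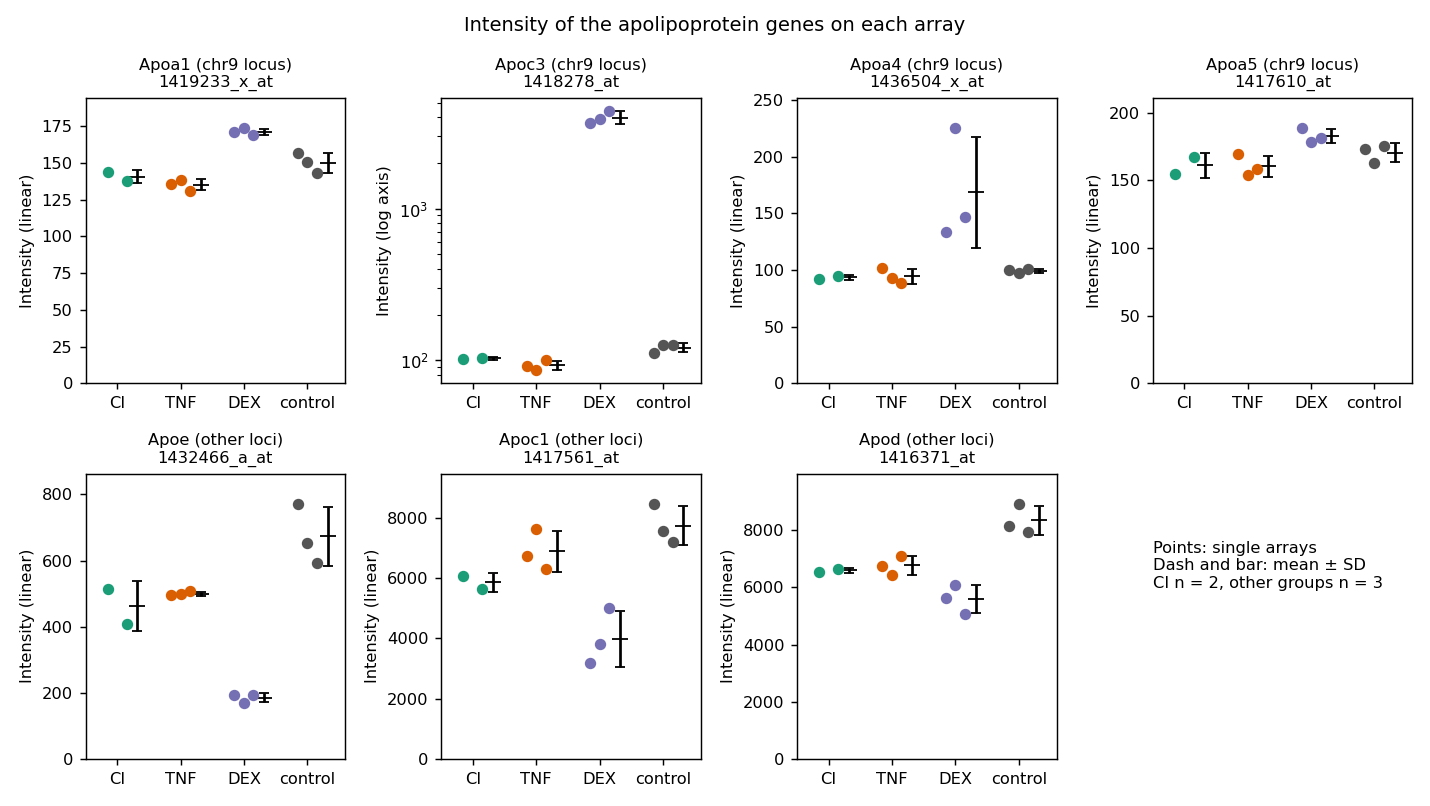
Intensity of the brightest probe set of each of the 7 genes on every array, in CI, TNF, DEX and control from left to right; points are arrays, bars are group means, and the Apoc3 panel has a log axis. The DEX arrays of Apoc3 lie between 3651 and 4408 while all other arrays lie at or below 126.6, and the DEX arrays of Apoe, Apoc1 and Apod are the lowest of their panels.

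In TNF none of the 7 genes was higher than in control by the test, and Apoc3, Apoe and Apod were lower. The 3 genes called lower stand against 25.2% of all genes tested that were called in either direction and 11.2% that were called lower (limma, Benjamini-Hochberg adjusted p under 0.05). The median log2 fold change was -0.17 over the 7 genes and -0.01 over all genes. On the brightest probe sets all 7 fold changes were below 0. The TNF arrays of 4 genes lay below every control array there, where 43.1% of all genes did not overlap in either direction and 21.3% lay below.

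Apoc3 had 91.6, 86.4 and 99.9 in TNF, against the 111.2 to 126.6 of control. Every TNF array was below every control array, with a log2 fold change of -0.34 ± 0.07 (SE) and adjusted p = 0.00367 (limma, Benjamini-Hochberg). The ratio of mean intensities was 0.765, on a scale where the DEX mean was 32.9 times control. These TNF and control intensities are near or below the array medians of 124.5 to 129.5, and how much of them is background is not known. The liver gene Alb, at a similar mean of 111.3 in control, had a log2 fold change of -0.35 in TNF.

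Apoe had 494.2, 497.6 and 506.8 in TNF, below the lowest control array at 593.8. Its log2 fold change was -0.41 ± 0.09 (SE), with adjusted p = 0.00451 (limma, Benjamini-Hochberg). Apod had 6749, 6436 and 7115 in TNF on its brighter probe set, again below every control array, with -0.30 ± 0.07 (SE) and adjusted p = 0.00532 (limma). On its dim probe set Apod had a log2 fold change of -0.07 in TNF and the arrays overlapped.

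The other 4 genes did not pass in TNF. Apoc1 had 6730, 7611 and 6300, and the highest of these was above the lowest control array (-0.17 ± 0.12 SE, adjusted p = 0.348, limma). Apoa1 had 136.0, 138.4 and 131.0, below every control array, at -0.13 ± 0.05 (SE) with adjusted p = 0.0708. Its other probe sets were at 0.04, 0.02 and 0.09 with overlapping arrays, so the probe sets of Apoa1 disagreed in sign. Apoa4 had 101.8, 92.8 and 88.4 and Apoa5 had 169.0, 153.9 and 158.3, both overlapping control, with adjusted p = 0.747 and 0.321. The dimmer Apoa4 probe set, 1417761_at, was at 0.08 in TNF with overlapping arrays.

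In CI Apoe and Apod were lower than in control by the test and the other 5 genes were not called. The CI, TNF and DEX comparisons share the 3 control arrays, so their directions are not independent of each other. The 2 genes called stand against 17.3% of all genes tested in either direction and 8.88% called lower (limma, Benjamini-Hochberg adjusted p under 0.05). All 7 log2 fold changes, taken on the brightest probe sets, were below 0, with a median of -0.21 against 0.01 over all genes. For 5 genes both CI arrays were below every control array, where 46.0% of all genes did not overlap in either direction. The 18 hybridization spike probe sets, which carry no RNA of the cells, were all lower in CI too, with a median log2 difference of -0.23. All 18 were also lower in TNF and 17 were lower in DEX, with smaller medians of -0.07 and -0.05. Their part in the CI and TNF values was not tested.

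Apoe had 515.1 and 408.9 in CI, both below the lowest control array at 593.8. The log2 fold change was -0.53 ± 0.10 (SE) with adjusted p = 0.00263 (limma, Benjamini-Hochberg). The lower CI array, replicate 2, decided the call: without it the value was -0.37 with adjusted p = 0.0551.

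Apod had 6537 and 6648 in CI, below all control arrays, with a log2 fold change of -0.34 ± 0.08 (SE) and adjusted p = 0.00756 (limma, Benjamini-Hochberg). Without CI replicate 1 its adjusted p was 0.0643, and as the mean of both probe sets it was 0.0991 with a value of -0.18. Apoc1 had 6064 and 5637 in CI, also below all control arrays, at -0.40 ± 0.14 (SE) and adjusted p = 0.0621 (limma).

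Apoc3 had 101.2 and 104.0 in CI, close together and below the lowest control array, at -0.21 ± 0.08 (SE) with adjusted p = 0.102 (limma). Apoa1, Apoa4 and Apoa5 were at -0.08, -0.07 and -0.08 with adjusted p = 0.397, 0.786 and 0.481. Their brightest probe sets had 143.8 and 137.8, 92.0 and 94.8, and 154.6 and 167.4 in CI, and those of Apoa1 and Apoa5 overlapped control. Of the dimmer ones, 1438840_x_at of Apoa1 and 1417761_at of Apoa4 were at 0.03 and 0.05, so the probe sets disagreed in sign. The remaining Apoa1 probe sets were at -0.07 and -0.10. The chromosome 9 genes had a median of -0.08 in CI and -0.11 in TNF, and Apoe, Apoc1 and Apod had medians of -0.40 and -0.30. No test of the difference between these 2 sets was made, since their members were chosen with the values known.

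Between TNF and CI 0 of the 7 genes were called, where 36.2% of all genes tested were, and none had an unadjusted p under 0.05 (limma). The values lay between -0.13 for Apoc3 and 0.23 for Apoc1, with adjusted p of 0.21 to 0.96. For Apoc3 all 3 TNF arrays were below both CI arrays, and for Apoc1 they were all above them, where 60.6% of all genes did not overlap. The group means of Apoc3 thus fell in the order DEX, control, CI and TNF, and those of Apoe in the order control, TNF, CI and DEX. In neither gene did TNF and CI differ by the test, and CI and control did not differ by it for Apoc3.

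**Figure D2:**
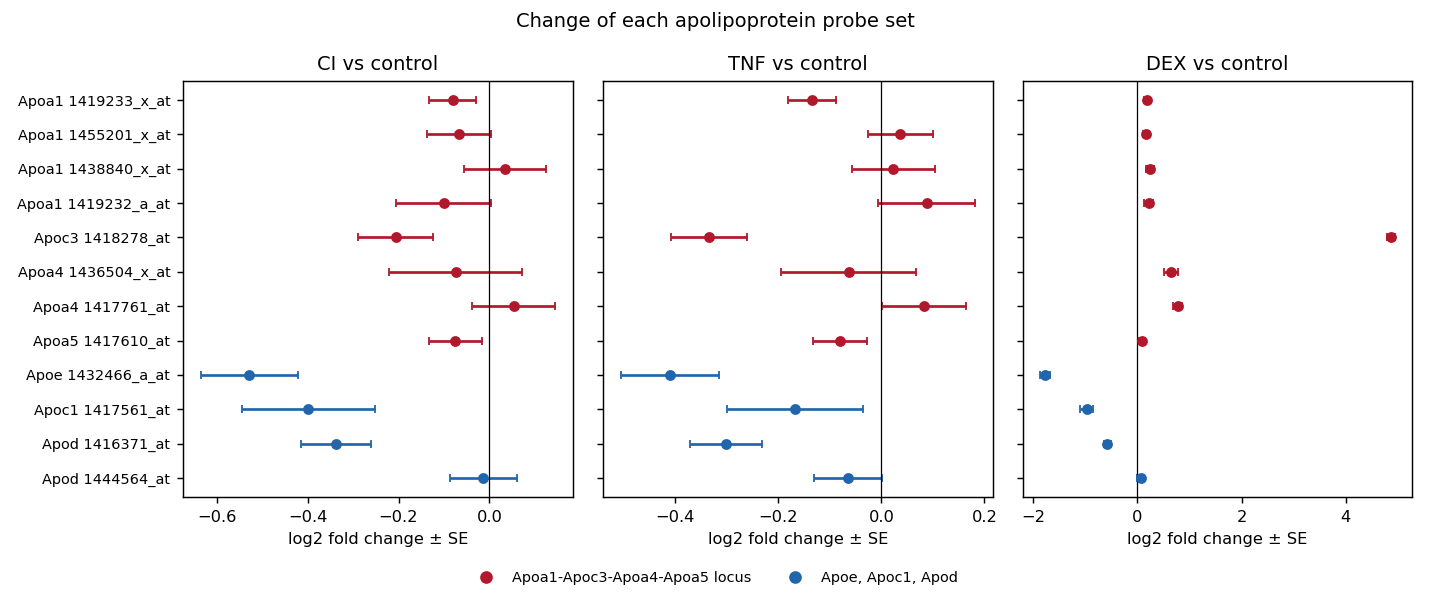
Log2 fold change with its standard error for each of the 12 probe sets against control, in panels for CI, TNF and DEX with axes of different width; colours separate the chromosome 9 genes from the others. The DEX panel runs from -1.77 for Apoe to 4.86 for Apoc3, and the dim Apod probe set 1444564_at lies near 0 in every panel.

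Counted by probe set, DEX arrays were all above control for 7 of the 8 chromosome 9 probe sets, and all below control for 3 of the 4 others, with an overlap for 1 of each, where 32.4% of all probe sets did not overlap. In TNF the 8 chromosome 9 probe sets had 2 below control and 6 overlapping (34.0% of all probe sets did not overlap). In CI they had 3 below and 5 overlapping (38.1%). All 12 probe sets had a mean over all arrays, DEX included, above the limit of 51.7 used to leave out dim genes. For each gene the mean of the brightest probe set was above the limit in every group, so none of the 7 genes was kept by that filter through DEX alone. The dimmest Apoa1 probe set, 1419232_a_at, was below the limit in CI (45.2) and control (50), and above it in TNF (54.0) and DEX (60.3).

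The genes around the members were examined as the 10 annotated protein-coding genes on each side. Around the chromosome 9 cluster 18 of 20 were tested, and in DEX 5 rose and 1 fell, where 14.0% of all genes rose and 13.6% fell. The neighbours had a median of 0.11, and Apoa1 at 0.18 and Apoa5 at 0.09 lay within their range of -0.30 to 0.59. None of the neighbours came near the value of Apoc3. Those that rose were Sidt2 (a lysosomal transmembrane protein) at 0.59, Zpr1 (a zinc finger protein, next to Apoa5) at 0.515, Sik3 (a salt-inducible kinase, next to Apoa1) at 0.44, Pafah1b2 (a subunit of platelet-activating factor acetylhydrolase) at 0.27 and Rnf214 at 0.15, with adjusted p = 1.85e-06, 3.4e-05, 0.000192, 0.00537 and 0.0475 (limma). Bace1, the beta-secretase, fell by 0.295 on the log2 scale (adjusted p = 0.00328). The call for Rnf214 was lost in each of 10 fits that left out 1 array, with an adjusted p of up to 0.145 without control replicate 2.

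Zpr1 was also called higher in TNF, and Rnf214 also higher in CI, while Sidt2 was lower in CI. No test of the difference between DEX and the other treatments is given for these genes. In TNF 3 rose, namely Tagln (an actin-binding protein of smooth muscle) at 0.57, Nxpe4 at 0.36 and Zpr1 at 0.24, and 0 fell. The call for Zpr1 was lost without TNF replicate 1 or 2 or control replicate 2, with adjusted p of 0.0624, 0.0672 and 0.098. In CI Rexo2 rose by 0.49, Pcsk7 by 0.27 and Rnf214 by 0.22, while Gm5617 and Sidt2 fell by 0.47 and 0.37. The CI call for Pcsk7 was lost without CI replicate 1 (adjusted p = 0.0567), and that for Rnf214 without CI replicate 2 (0.146) or control replicate 2 (0.0665). When a gene's probe sets were averaged instead of taking the brightest, Rnf214 in CI was at 0.03 (adjusted p = 0.713) and Zpr1 in TNF at 0.153 (0.067). Between TNF and CI 5 neighbours were higher in TNF (Tagln, Nxpe4, Gm5617, Sidt2 and Rbm7, 0.19 to 0.81) and 4 were lower (Rexo2, Pcsk7, Rnf214 and Dscaml1, -0.57 to -0.19).

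Around Apoe and Apoc1 16 of 20 neighbours were tested. In DEX Bcl3, Nectin2 and Nkpd1 rose by 0.32, 0.24 and 0.19, and Pvr and Clptm1 fell by 0.27 and 0.17, so no neighbour tested had as large a value as Apoe or Apoc1. In that comparison Pvr kept its call without any single array, and the others lost theirs, with adjusted p of up to 0.14 for Nkpd1 (without control replicate 1), 0.144 for Clptm1 (without DEX replicate 2), 0.105 for Nectin2 (without control replicate 2) and 0.0571 for Bcl3 (without DEX replicate 3). Averaged over their probe sets, Nectin2 was at 0.141 and Clptm1 at -0.09 (adjusted p = 0.0521 and 0.147). In TNF Bcl3 (an NF-kappaB cofactor) and Relb (an NF-kappaB subunit) rose by 1.39 and 1.16 and Nectin2 by 0.58, with adjusted p = 4.18e-08, 1.78e-06 and 3.81e-05 (limma). Apoc4, Tomm40 and Pvr fell there by 0.31, 0.23 and 0.20, calls that were lost without control replicate 3, with adjusted p = 0.0831, 0.0606 and 0.116. In CI Pvr, Tomm40 and Bcl3 rose by 0.50, 0.42 and 0.35, and Apoc4, the apolipoprotein gene beside Apoc1, fell by 0.45 (adjusted p = 0.00481). The CI call for Bcl3 was lost without CI replicate 1 (0.169), CI replicate 2, control replicate 2 or control replicate 3. Between TNF and CI 3 were higher in TNF (Relb, Bcl3 and Nectin2, 0.60 to 1.24) and 4 were lower (Pvr, Tomm40, Clptm1 and Cblc, -0.70 to -0.15).

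Around Apod 18 of 20 neighbours were tested. In DEX Ppp1r2 and Acap2 rose by 0.25 and 0.185 and Xxylt1 fell by 0.21. In TNF Fam43a, Xxylt1 and Dlg1 rose by 0.84, 0.33 and 0.21 (Dlg1 was at 0.092 with the mean of all probe sets, adjusted p = 0.141), and in CI Atp13a3 rose by 0.47 while Fam43a, Acap2, Ppp1r2 and Xxylt1 fell by 0.57, 0.41, 0.24 and 0.21. Between TNF and CI Fam43a, Xxylt1, Acap2 and Ppp1r2 were higher in TNF (0.19 to 1.41) and Atp13a3 was lower (-0.56). The DEX call for Acap2 was lost without control replicate 3 (adjusted p = 0.0502). The CI calls for Xxylt1 and Ppp1r2 were lost without either CI array (up to 0.0896 and 0.151), and that for Ppp1r2 also without control replicate 2 or 3. The brighter Apod probe set was lower than control on every array of all 3 treatments.

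**Figure D3:**
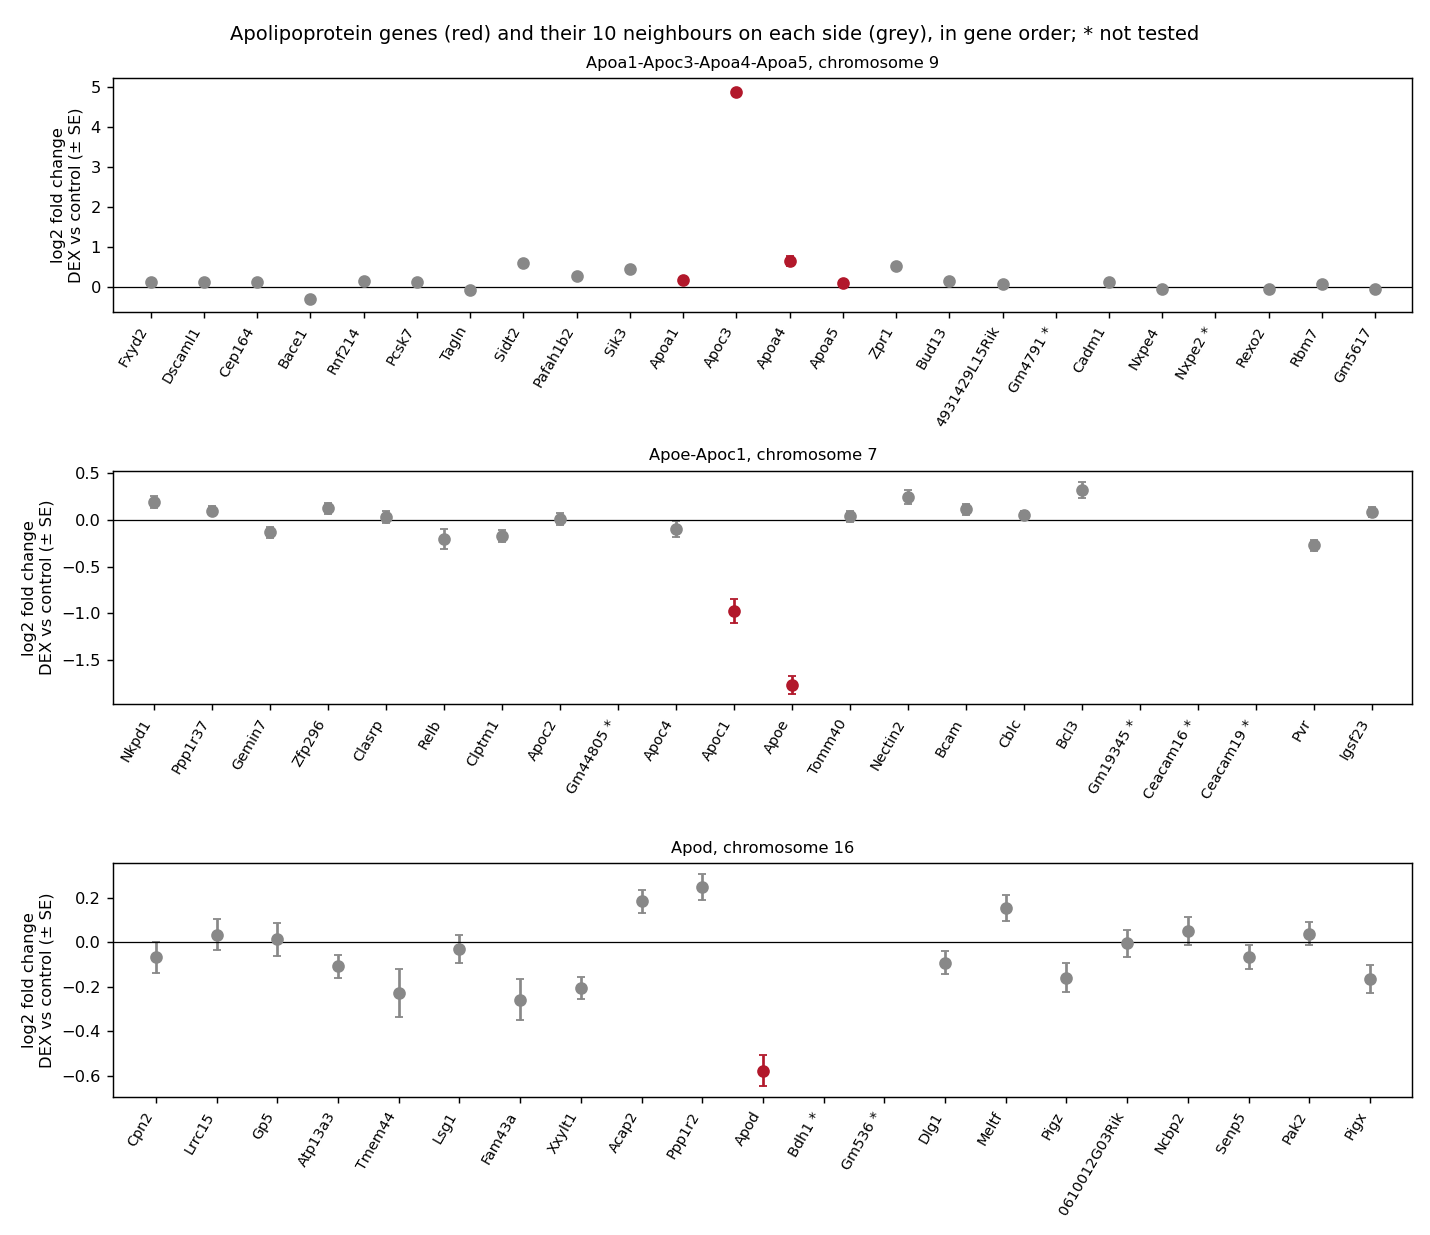
Log2 fold change in DEX against control, with its standard error, for the apolipoprotein genes in red and the 10 genes on each side in grey, in gene order, with a panel for each locus; an asterisk marks a gene that was not tested. Apoc3 stands at 4.86 between neighbours of -0.30 to 0.59, and Apoe and Apoc1 at -1.77 and -0.97 between neighbours of -0.27 to 0.32.

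Of 14 other apolipoprotein or apolipoprotein-related genes tested, 2 rose and 4 fell in DEX (14.0% and 13.6% of all genes), with a median of -0.09 against 0.02 over all genes. Those that rose were Apoh, a plasma glycoprotein that binds phospholipid, at 0.33 and Apool, a mitochondrial inner membrane protein, at 0.16. Those that fell were Clu, the chaperone also called apolipoprotein J, at -0.51, Apol6 at -0.47, Apobec1, the enzyme that edits the Apob message, at -0.67 and Apobr, a macrophage receptor for Apob-containing particles, at -0.29. Apob itself, the structural protein of very low density particles and chylomicrons, was at -0.08 ± 0.06 (SE) with adjusted p = 0.36 (limma), and Apoc2, the activator of lipoprotein lipase, at 0.01 (adjusted p = 0.923). The count of 2 was 1 without control replicate 1, control replicate 3, DEX replicate 2 or DEX replicate 3, as Apool lost its call (adjusted p up to 0.098). As the average of its probe sets Apool was at -0.032 in TNF and -0.131 in CI (adjusted p = 0.67 and 0.128), against the calls given next.

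In TNF the same list had 2 higher and 4 lower, where 13.9% of all genes were higher and 11.2% lower. Clu had a mean of 3898 ± 49.5 in TNF, 862.7 ± 69.5 in CI, 866.9 ± 44.8 in DEX and 1240 ± 37.5 in control (SD, n = 3, CI n = 2). It rose by 1.64 in TNF (adjusted p = 6.96e-11) and fell by 0.52 in CI and 0.51 in DEX, so its direction in TNF was opposite to that of Apoc3, Apoe and Apod. Apobec1 also rose in TNF, by 0.44. Apoo (a mitochondrial cristae protein), Apoc4, Apob and Apool fell there by 0.45, 0.31, 0.22 and 0.17. The count of 4 was 2 when control replicate 2, control replicate 3 or TNF replicate 1 was left out. In CI Apobec1 and Apoo rose by 0.47 and 0.35, and Clu, Apol6, Apoc4 and Apool fell by 0.52, 0.48, 0.45 and 0.37. Without either CI array the call for Apobec1 was lost (adjusted p up to 0.0819).

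Of 15 genes of lipoprotein assembly and remodelling, 1 rose and 5 fell in DEX, where 14.0% of all genes rose and 13.6% fell. Angptl4, an inhibitor of lipoprotein lipase known to be induced by glucocorticoids and fasting, rose by 0.53 ± 0.13 (SE, adjusted p = 0.0052, limma). Among the 5, Pltp, the phospholipid transfer protein, fell by 0.86, Angptl8, an insulin-induced modulator of lipase inhibition, by 0.86, Lipe, the hormone-sensitive lipase, by 0.29 and Sort1, a sorting receptor for lipase and Apob, by 0.23. The call for Lipe was lost without control replicate 1, DEX replicate 1 or DEX replicate 2 (adjusted p = 0.12, 0.0513 and 0.123), and with the mean of all probe sets its value was -0.088 (0.394). The count of 5 was 3 without control replicate 1 or DEX replicate 1, and the 1 that rose became 2 without control replicate 2. Lpl, the lipase that Apoc3 and Angptl4 inhibit, had means of 19570 in DEX and 19430 in control, near the top of the intensity scale (log2 fold change 0.01).

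Of the genes named for DEX, Sort1 fell in CI and TNF as well, Angptl4 rose and Lipe and Angptl8 fell in TNF as in DEX, and Pltp fell in CI as in DEX, all against the same control arrays. Angptl8 was called higher in CI and Pltp higher in TNF. Angptl8 had a mean of 388.5 ± 3.81 in CI, 84.7 ± 3.93 in TNF, 76.6 ± 6.29 in DEX and 151.8 ± 11.7 in control, a rise of 1.27 in CI (adjusted p = 2.62e-07) and a fall by 0.74 in TNF (adjusted p = 1.12e-06, limma). Pltp fell by 0.45 in CI and rose by 0.42 in TNF. In CI Mttp, which loads lipid on Apob, and Sort1 also fell, by 0.28 and 0.25 (calls lost without CI replicate 1 for Mttp, adjusted p = 0.344, and without CI replicate 2 for Sort1, 0.0607), and in TNF Angptl4 rose by 0.50 while Sort1 and Lipe fell by 0.34 and 0.38. Averaged over probe sets, Sort1 in CI was at -0.053 (adjusted p = 0.635) and Lipe in TNF at -0.177 (0.0841). In all, 1 rose and 3 fell in CI (2 rose without DEX replicate 2), and 2 rose and 3 fell in TNF. Angptl4 alone of the 2 was not called without TNF replicate 2 (adjusted p = 0.052).

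Of 13 lipoprotein receptor and uptake genes, 2 rose and 3 fell in DEX (14.0% and 13.6% of all genes). Mylip, the ubiquitin ligase that degrades the low-density lipoprotein receptor, fell by 1.32 (adjusted p = 9.52e-10), Vldlr, the receptor for very low density particles and Apoe, by 0.60 and Lrpap1, the chaperone of these receptors, by 0.63. Lrp8, a second Apoe receptor, rose by 0.28 and Olr1, a scavenger receptor, by 0.55. Neither of these calls held without control replicate 1, with adjusted p = 0.0507 for Lrp8 and 0.0509 for Olr1, and that for Olr1 also not without control replicate 2 or DEX replicate 2. Averaged over probe sets, Lrp8 was at 0.105 in DEX and Lrp2 at -0.063 in TNF (adjusted p = 0.1 and 0.304). In TNF 3 rose and 3 fell: Lrp1, the remnant receptor for Apoe, rose by 0.705, Olr1 by 0.65 and Sdc1 by 0.32, and Mylip, Lrpap1 and Lrp2 fell by 0.30, 0.29 and 0.16. The call for Lrp2 was lost in 9 of the fits that left out 1 array (adjusted p up to 0.203, without control replicate 2). In CI Olr1 rose by 0.555, a call lost without either CI array or without control replicate 1 or 2 (adjusted p up to 0.225), and Lrpap1 fell by 0.44.

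Of 14 genes of cholesterol efflux and of the liver X receptors (LXR), which act on Apoe and Apoc1 in macrophages and fat cells, 5 rose and 4 fell in DEX, where 14.0% of all genes rose and 13.6% fell. Rxra and Rxrb, partners of the LXRs, rose by 0.61 and 0.40, Srebf1 by 0.41 and Npc1 by 0.34. Nr1h3, which encodes LXR alpha, fell by 0.27, Lpcat3 by 0.41, Lipa by 0.37 and Npc2 by 0.17. The call for Npc2 was lost without control replicate 2 (adjusted p = 0.0973), control replicate 3, DEX replicate 1 or DEX replicate 3. Averaged over probe sets, Npc2 was at -0.104 in DEX and Lipa at 0.226 in TNF (adjusted p = 0.0804 and 0.119). The cholesterol exporters Abca1 and Abcg1 were at -0.06 and 0.02 in DEX with adjusted p = 0.499 and 0.854 (limma). The part of the LXRs in the values of Apoe and Apoc1 was not tested. In TNF 5 rose and 2 fell, with Npc1 at 0.43, Lipa at 0.29, Abca7 at 0.30, Srebf1 at 0.28, Lpcat3 at -0.49 and Nr1h3 at -0.31. In CI Nr1h3 rose by 0.37 and Srebf1 fell by 0.33, the second a call lost without CI replicate 2 (adjusted p = 0.13). Without TNF replicate 3 or DEX replicate 1, 2 fell in CI.

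**Figure D4:**
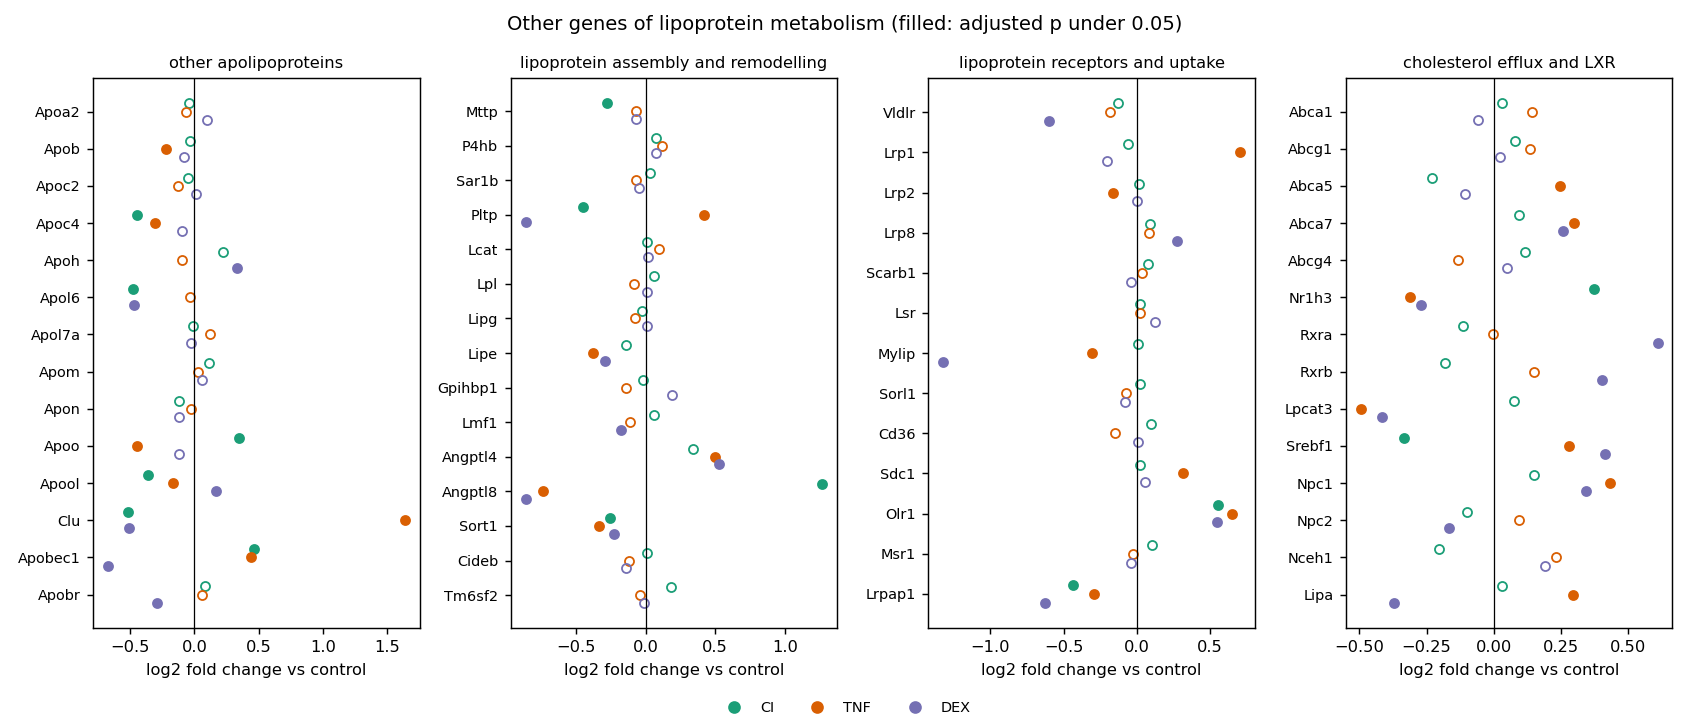
Log2 fold change against control in CI, TNF and DEX for the other apolipoproteins, the assembly and remodelling genes, the receptors and the efflux and LXR genes; filled points passed an adjusted p of 0.05. Clu in TNF at 1.64, Angptl8 in CI at 1.27 and Mylip in DEX at -1.32 lie farthest from 0.

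Of 22 factors known to act at the chromosome 9 cluster, mostly from work in liver cells, 6 rose and 5 fell in DEX, where 14.0% of all genes rose and 13.6% fell, with a median of 0.05 against 0.02 over all genes. Foxo1, a forkhead factor that raises Apoc3 in liver, rose by 0.38 (adjusted p = 0.000435), Nr2f1 by 0.34, Cebpb by 0.325 and Rora by 0.32. Nr3c1, the glucocorticoid receptor, fell by 0.49, and Pparg, Ppargc1a and Nr1d2 fell too, at -0.395, -0.355 and -0.33. Hnf4a had means of 370.6 ± 9.28 in DEX and 360.2 ± 17.5 in control and was not called (0.04, adjusted p = 0.625, limma). The count of 6 was 3 without control replicate 2, and 2 without control replicate 3 or DEX replicate 1. Averaged over its probe sets, Cebpb was at 0.304 (adjusted p = 0.125).

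In TNF 3 of these factors rose, Nr2f1 by 0.43, Cebpb by 0.39 and Nr2f2 by 0.27, and 3 fell, Cebpa by 0.53, Foxo1 by 0.25 and Hnf4a by 0.16. The 3 that rose were 1 when control replicate 2, control replicate 3 or TNF replicate 2 was left out, and without TNF replicate 2 the 3 that fell were 1 too. The TNF values averaged over probe sets were 0.384 for Cebpb (adjusted p = 0.0592), 0.134 for Nr2f2 (0.105) and -0.113 for Hnf4a (0.0548). In CI Nr2f2 fell by 0.365 and no other was called, and without CI replicate 1 that call was lost (adjusted p = 0.0812). Without CI replicate 2 there were 2 that fell, and 1 rose without control replicate 1 or TNF replicate 3.

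Markers of other cells that make these apolipoproteins were set beside the members. The 13 hepatocyte marker genes on the array summed to 1899 to 2012 in CI, 1809 to 1944 in TNF, 2076 to 2130 in DEX and 2026 to 2079 in control. Of 9 tested 1 (Apoh) was higher in DEX and 0 were lower, where 14.0% of all genes were higher and 13.6% lower. Alb, the defining gene of liver, was at 112.9 in DEX and 111.3 in control (log2 fold change 0.02, adjusted p = 0.865), and in TNF Alb fell by 0.35. In TNF 3 of the 9 were lower, or 1 without control replicate 3 or TNF replicate 2, and in CI 1 was, or 0 without CI replicate 1, control replicate 1, control replicate 3 or DEX replicate 3. Without control replicate 3, 1 was higher in CI. Of all genes tested 11.2% were lower in TNF, and 8.88% were lower and 8.38% higher in CI. The 10 enterocyte markers summed to 958 to 1028 in CI, 976 to 1083 in TNF, 1042 to 1119 in DEX and 1064 to 1084 in control. Fabp1 was at 21.5 in DEX and 19.4 in control, near the bottom of the scale. In DEX 0 of 5 enterocyte markers tested were called by limma, where 27.6% of all genes tested were.

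Macrophages are known to make Apoe and Apoc1, and fibroblasts to make Apod. The 14 macrophage markers summed to 4377 to 4684 in CI, 6379 to 6872 in TNF, 3883 to 4367 in DEX and 5078 to 5251 in control. In DEX 1 of 11 tested rose (Cd14, 0.90) and 2 fell (Mpeg1, -1.67 and Lyz2, -0.62), in TNF 3 rose and 1 fell, and in CI 1 rose and 2 fell. In DEX 2 rose without control replicate 1, and in TNF 2 fell without control replicate 3 or TNF replicate 2. Over all genes tested 8.38% rose and 8.88% fell in CI, 13.9% rose and 11.2% fell in TNF, and 14.0% rose and 13.6% fell in DEX. The summed level was thus lower than control in CI and DEX and higher in TNF. Bright genes weigh most in such a sum, and Lyz2 alone had means of 1494 in CI, 2948 in TNF, 1513 in DEX and 2325 in control. The median log2 fold change of the 11 markers tested was 0.01 in CI, 0.08 in TNF and -0.02 in DEX.

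The 11 preadipocyte and fibroblast markers summed to 41900 to 44900 in CI, 57820 to 62720 in TNF, 27410 to 32300 in DEX and 51010 to 60260 in control. Of 10 tested 1 rose (S100a4, 0.41) and 7 fell in DEX, where 14.0% of all genes rose and 13.6% fell. Among those that fell were Lum at -2.96, Dcn at -1.77, Col3a1 at -1.19 and Pdgfrb at -0.91. In CI 6 of 10 fell and 0 rose, where 8.88% and 8.38% of all genes did. In TNF 4 rose and 1 fell, where 13.9% and 11.2% of all genes did, and 2 fell when either CI array was left out, as all groups enter 1 fit. The 10 adipocyte markers summed to 108400 to 108600 in CI, 89290 to 90230 in TNF, 102200 to 107800 in DEX and 107700 to 108000 in control, with 2 higher in CI (0 without CI replicate 1, and 1 when any 1 control array, any 1 TNF array or DEX replicate 1 was left out), 5 lower in TNF, and 1 higher (0 without control replicate 2) and 4 lower in DEX. In DEX Pck1 was at -2.315, Slc2a4 at -0.80, Pparg at -0.395 and Cebpa at -0.29, and Cidec was the 1 that rose, at 0.22. Those lower in TNF included Retn at -0.83, Cidec at -0.64, Slc2a4 at -0.545 and Cebpa at -0.53. The 2 higher in CI were Lep at 0.22 and Cidec at 0.205. The part of these cell types in the values of Apoe, Apoc1 and Apod was not tested, and in such bulk RNA fewer cells of a type and less RNA per cell cannot be told apart. All samples came from a single preadipocyte line, so the macrophage markers are given as levels of those genes and not as a sign of macrophages.

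The genes whose log2 values followed each member most closely over the 11 arrays are given by Pearson's r, as a description. For Apoc3 they were Cpm (a carboxypeptidase, r = 0.9971), Gsta3 (a glutathione transferase, 0.9971), Fam107a (0.9961), Dctn3 (a dynactin subunit, 0.9952) and Tcl1b3 (0.992). In DEX Cpm was at 4.85, Gsta3 at 3.31, Dctn3 at 1.06 and Tcl1b3 at 0.28. As the DEX arrays stand alone for Apoc3, these values say little beyond a difference between DEX and the rest. Cpm had a mean of 1409 ± 129 in DEX and 33.3 ± 3.33 in control (SD, n = 3 each).

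For Apoe they were Irs1 (the insulin receptor substrate, r = 0.9904), Gas2 (0.9823), Ankrd50 (0.9814), Ptn (the growth factor pleiotrophin, 0.9809) and Sesn3 (a sestrin, 0.9786). Irs1 had a mean of 3625 ± 168 in CI, 3985 ± 252 in TNF, 2246 ± 156 in DEX and 4479 ± 211 in control (SD), the same order of groups as Apoe, and in DEX the 5 genes fell by 0.99, 1.65, 0.84, 0.89 and 0.85. For Apod they were Rdh10 (a retinol dehydrogenase, 0.9654), Abat (the GABA transaminase, 0.9584), Derl1 (0.9497), Tinag (0.9481) and P2rx3 (0.9439). Abat fell by 0.61 in CI, 0.52 in TNF and 0.89 in DEX. The genes given for Apoe and Apod were picked for likeness over these same arrays, so shared orders and directions come from that choice.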

How the data were processed

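The authors deposited a table of linear intensity values for 45101 probe sets, with a column for each of the 11 arrays and 0 columns of no sample. The sources used here do not give the method of background correction or normalization. Between arrays the log2 quartiles were within 0.0765, so no normalization was added. Per the labels' protocols, biotin-labelled cRNA was made from total RNA, and groups and replicate numbers come from the sample titles.

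The 64 control probe sets were left out. Values were taken as log2(intensity + 16), so fold changes understate those of dim genes. The brightest probe set by mean over the arrays stood for its gene. Genes dimmer than the 25th percentile of probe set means (51.7) were dropped, leaving 15623 of 18193. Comparisons used limma 3.58.1 under R 4.3.3 (lmFit and eBayes, two-sided, Benjamini-Hochberg over all genes tested, called at an adjusted p under 0.05), with all 11 arrays in a single fit of group means (7 residual and 7.59 prior degrees of freedom). The single probe sets of the members had a fit of their own over all probe sets with no filter on dim ones. SDs are between arrays and standard errors are of the fit. The fit was tested on simulated data first.

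The members, gene lists and tests were chosen with earlier results of these data known. The text names all probe sets of the members, every called neighbour, the 5 genes most like Apoc3, Apoe and Apod, and 4 glucocorticoid-responsive genes. From each list it draws on up to 4 called genes in each direction by smallest adjusted p. Not all of these are named for the marker lists, and none for TNF against CI. Genes outside this rule are given as background for the lists. The lists were other apolipoproteins, lipoprotein assembly and remodelling, receptors, cholesterol efflux and LXR, factors of the chromosome 9 cluster, and markers of adipocytes, hepatocytes, enterocytes, macrophages and preadipocytes with fibroblasts; gene order came from a RefSeq gene table. As a measure of RNA quality, Gapdh had 3′ to 5′ signal ratios of 1.04 to 1.11, and actin of 1.43 to 1.82. The alternatives were other offsets, filters, normalizations, probe set summaries and samples in the fit, array weights, a replicate block and leaving out each array.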

Additional observations from a re-analysis of the deposited data

How the results depend on the processing

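Under 22 alternative settings, 587 of 612 values of the 7 genes in the comparisons with control and of TNF with CI kept their direction and their side of the threshold, or, for DEX, moved by less than 1 SD between arrays. Apoc3 in DEX was 5.03 with an offset of 1 and 4.45 with an offset of 64, and Apoe was -1.555 with an offset of 64, as the offset itself sets the fold change of dim values. The mean of all probe sets gave Apod -0.257 in DEX and -0.176 in CI (adjusted p = 0.0991), and Apoa4 was 0.438 in DEX without DEX replicate 2. Apoe in CI was -0.367 without CI replicate 2 (adjusted p = 0.0551) and Apod in CI was -0.325 without CI replicate 1 (0.0643). Apoc1 in CI, not called in the fit reported, passed with quantile normalization (-0.416, 0.0478), with only the compared groups (-0.398, 0.00601) and without DEX replicate 1 (0.0224) or DEX replicate 3 (0.0113). The adjusted p of Apoc3 in TNF stayed between 0.000496 and 0.0228.

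The 13 values that changed sign were all small and not called. With the mean of all probe sets, Apoa1 was 0.004 and Apoa4 0.009 in TNF against control, and Apoa1 was 0.057 and Apod -0.007 between TNF and CI. Between TNF and CI, Apoa5 was 0.009 with quantile normalization, 0.026 with median centring, 0.048 without CI replicate 2, 0.022 without TNF replicate 2 and 0.004 without TNF replicate 3, Apoa4 was -0.008 without CI replicate 1 and -0.038 without TNF replicate 1, Apoe was -0.043 without CI replicate 2, and Apod was 0 without TNF replicate 3. Over all fits that left out 1 array, these TNF against CI values ran from -0.038 to 0.049 for Apoa4, -0.057 to 0.048 for Apoa5, -0.043 to 0.279 for Apoe and 0 to 0.072 for Apod. Apoa4 has no value with the dim filter at the median.

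Genes called numbered 2696 in CI, 3930 in TNF, 4316 in DEX, 5656 in TNF against CI, 5311 in DEX against CI and 5645 in DEX against TNF. With every probe set tested by itself, which tests more features, they were 4342, 6402, 7503, 10127, 9614 and 9900. Leaving out single arrays gave 1433 to 3043, 2809 to 4250, 3462 to 4318, 4170 to 5970, 4138 to 5335 and 4519 to 5669, with the lowest CI count without CI replicate 1. Same-numbered arrays deviated from their group means with a median correlation of 0.02 over 15 pairs (-0.29 to 0.34, with 6 over 0.1). Control and TNF replicate 1 were at 0.288 and control and TNF replicate 3 at 0.341, while TNF and DEX replicate 2 were at -0.166. Whether the numbers pair the samples cannot be told from these values. A replicate block gave 2784, 3976 and 4393 genes in CI, TNF and DEX and changed no call of the 7 genes. Of 3248 values of other named genes 3065 kept their call and 183 lost it, and of 1320 list counts 104 moved by over 1.5 times. The control arrays are shared by all comparisons, CI has 2 arrays, and the cause of each loss was not tested.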
